A study of Mus musculus with 2 samples.

Results

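The cells described here are the stem and multipotent cells of mouse bone marrow sorted as Lin- Kit+, a gate for immature cells, which show no surface markers of mature blood lineages and display the receptor Kit. They numbered 1647 of 11416 filtered cells, with 951 of 5781 in the library of the GATA-1 knock-in and 696 of 5635 in the wild-type library. The knock-in is labelled as a GATA-1 mutation called 2RA, and the labels do not say which residues it changes. The labels give neither the number, sex nor age of the mice nor the strain, and both genotypes were sorted from bone marrow in the same way. Each genotype was 1 droplet library with 3' reads, so no test across samples was possible and every difference below is between these 2 libraries. Intervals are exact 95% intervals and cover counting error only. The stated aim was to see how the marrow's cell makeup and its gene regulation change in the mutant mice.

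A cell was a member when it held 2 or more UMIs (tags that each mark 1 captured RNA molecule) summed over Hlf, Mecom, Procr, Angpt1, Mllt3 and Meis1. It also had to stay under 5 counts per 10000 (CP10k) of Car1, under 10 CP10k of Pf4, Itga2b, Cavin2, Treml1 and Rab27b together, under 5 CP10k of Cpa3, Ms4a2 and Fcer1a together, under 20 CP10k of Mpo, and under 2 UMIs of Dntt and Flt3 together. Cells with at least 500 genes, 1000 UMIs and at most 10% mitochondrial UMIs were considered. These 18 genes chose the cells, so their values are given as a description only. Members with exactly 2 stem gene UMIs, just inside the limit, numbered 308 in the knock-in (32.4%) and 138 in wild type (19.8%). Cells just outside it, with 1 stem gene UMI and every other part of the rule met, numbered 346 in the knock-in and 162 in wild type.

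Haematopoietic stem cells renew themselves and give rise, through multipotent progenitors, to all blood lineages. Hlf, Mecom and Meis1 encode transcription factors that maintain the stem cell state, Procr encodes a surface receptor used to isolate stem cells, Angpt1 a ligand of the receptor Tek, and Mllt3 a regulator of transcription and stem cell maintenance. GATA-1 drives red cell, megakaryocyte, mast cell and eosinophil differentiation, and its relative GATA-2 acts earlier, in stem and progenitor cells, where it is exchanged for GATA-1 as red cell development proceeds.

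The libraries differed in depth. Filtered cells had a median of 5449 UMIs in the knock-in and 9826 UMIs in wild type, and members had 3870 and 5366.5 UMIs, 1595 and 2053.5 genes, and 3.86% and 3.94% mitochondrial UMIs. Summed over the members there were 4495458 UMIs in the knock-in and 4975326 UMIs in wild type. Of all barcodes, 11.4% in the knock-in and 23.05% in wild type were over the mitochondrial limit. The libraries shared 10 barcodes, none of them a member in both.

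Members made up 16.5% (15.5 to 17.4) of the filtered cells in the knock-in and 12.4% (11.5 to 13.2) in wild type. The rule counts whole UMIs and so depends on depth. After each cell was thinned to 2500 UMIs the shares were 11.6% (596 of 5143 cells, 10.7 to 12.5) in the knock-in and 8.41% (458 of 5446 cells, 7.69 to 9.18) in wild type, with 638 and 189 shallower cells left out. At 4000 UMIs they were 8.78% (323 of 3680 cells, 7.88 to 9.74) in the knock-in and 8.11% (397 of 4897 cells, 7.36 to 8.91) in wild type, with 2101 and 738 cells left out, and the intervals overlapped. The share was therefore higher in the knock-in at every depth, and the gap at 4000 UMIs was within counting error. A sort precedes these shares, and its gate can set them.

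**Figure D1:**
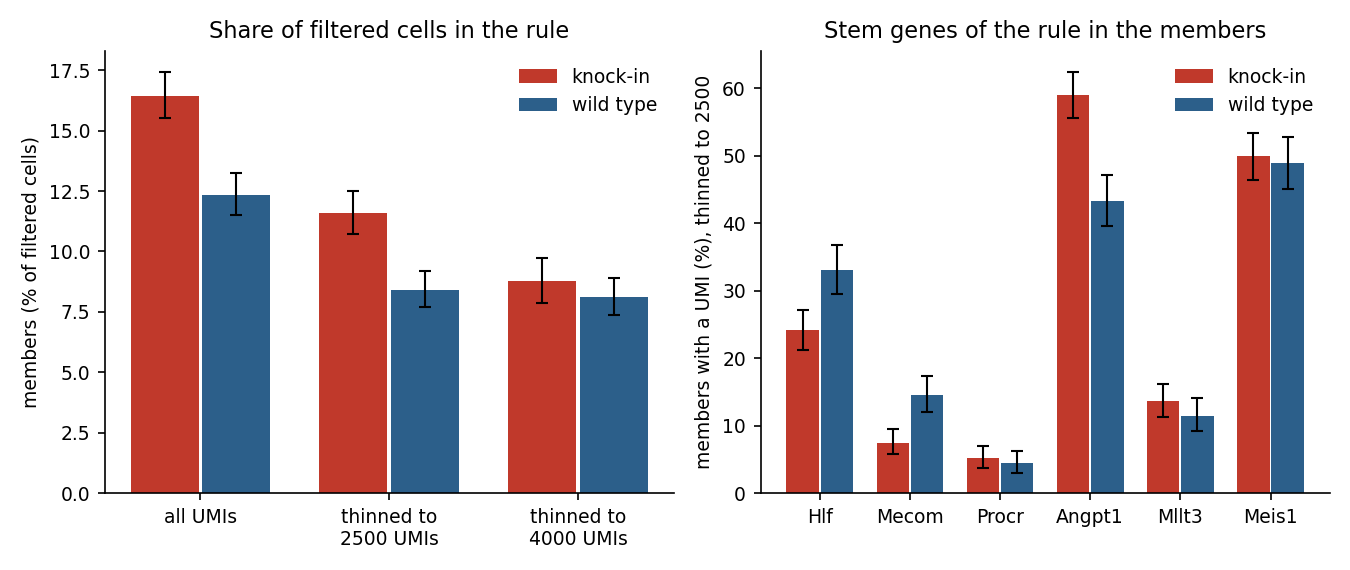
Left, members as a percentage of filtered cells with all UMIs (16.5% in the knock-in, 12.4% in wild type), and after thinning every cell to 2500 or 4000 UMIs; right, the percentage of members with a UMI of each stem gene of the rule after thinning to 2500 UMIs. Bars are 1 library each and error bars are exact 95% binomial intervals (counting error only); Angpt1 is detected in more knock-in members (59.0% against 43.3%) and Hlf and Mecom in fewer, while the intervals of Procr, Mllt3 and Meis1 overlap.

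The stem genes that brought cells into the rule differed in their mix. At 2500 UMIs per cell, Hlf was detected in 24.1% of knock-in members and 33.0% of wild-type members, and Mecom in 7.47% and 14.5%. Angpt1 was detected in 59.0% of knock-in members and 43.3% of wild-type members. Procr (5.18% and 4.41%), Mllt3 (13.6% and 11.5%) and Meis1 (49.9% and 48.9%) had overlapping intervals. Members with 2 or more UMIs of Hlf, Mecom and Procr together, called the core here, made up 13.1% (109 of 830, 10.9 to 15.6) of thinned knock-in members and 19.1% (130 of 681, 16.2 to 22.2) of thinned wild-type members. Without thinning the core was 23.3% (222 of 951) in the knock-in and 36.5% (254 of 696) in wild type. Members without any UMI of Hlf, Mecom or Procr made up 70.2% of thinned members in the knock-in and 59.0% in wild type.

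Stem cell genes outside the rule stood higher in the members than in other cells, in sums over cells. Cd34, a surface sialomucin of stem and progenitor cells, stood at 227 CPM (UMIs per 1000000 UMIs of the summed cells) in knock-in members and 76.6 CPM in the other knock-in cells, and at 214 CPM in wild-type members and 92.0 CPM in the other wild-type cells. At 2500 UMIs it was detected in 38.8% of knock-in members and 41.1% of wild-type members, so these sums do not show the name for every member. Of the 22 stem cell surface and signalling genes measured in the knock-in, 19 were higher in members than in other cells and 13 at least 2-fold, with a median log2 ratio of 1.40. In wild type 20 of 21 were higher and 13 at least 2-fold, with a median of 1.20. The stem cell transcription factors gave 22 of 25 (14 at least 2-fold, median 1.26) in the knock-in and 22 of 24 (17 at least 2-fold, median 1.37) in wild type. Over all genes 6533 of 11041 were higher in knock-in members (1198 at least 2-fold, median 0.12) and 7211 of 11433 in wild-type members (1282 at least 2-fold, median 0.16). Members were chosen by expression, so genes that vary together with the rule genes had to differ, and these counts describe the members without testing them.

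Among the genes that stood highest in members over other cells, by the smaller of both libraries' ratios, were Nkx2-3, Ly6a, Ltb and Myl10. Nkx2-3 encodes a homeodomain factor and stood at 29.4 CPM in members and 2.10 CPM in other cells of the knock-in, and at 24.1 and 1.94 CPM in wild type. Ly6a encodes Sca-1, the surface marker that defines mouse stem cell gates, and stood at 34.7 CPM in members and 2.90 CPM in other cells of the knock-in, and at 51.9 and 5.03 CPM in wild type. Ltb, the lymphotoxin beta ligand, had 62.5 CPM in members and 7.47 CPM in other cells of the knock-in, and 54.3 and 3.70 CPM in wild type. These genes were thus higher in members than in other cells of both libraries.

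A part of the members carried erythroid RNA. Klf1, Gata1 or Ermap, early erythroid markers that the rule did not use, were detected at 2500 UMIs in 23.1% (192 of 830) of knock-in members and 18.9% (129 of 681) of wild-type members. Among core members the shares were 2.75% (3 of 109) and 2.31% (3 of 130), among the remaining members 26.2% and 22.9%, and among all other filtered cells 54.2% and 38.7%. In cells with high Mpo and low Car1, which should lack it, Klf1 was detected in 0 of 83 knock-in cells (median 6737 UMIs before thinning; up to 4.35% by the exact interval) and in 1.04% of 193 wild-type cells (median 9166 UMIs), against 12.5% and 8.81% of members. Erythroid markers were thus rarer in the core than in the other members of both libraries.

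Megakaryocyte markers (Gp1bb and Vwf) were detected in 2.41% of knock-in members and 1.32% of wild-type members, against 1.34% and 1.03% of all other cells. Of the platelet genes that the rule limits, Itga2b stood at 43.8 CPM in knock-in members and 18.8 CPM in other knock-in cells. In wild type it stood at 51.1 and 15.3 CPM. Cavin2, Treml1 and Rab27b were also higher in members of both libraries, and Pf4 was lower. Basophil and mast cell markers (Hdc and Gzmb) were detected in 2.892% and 2.496% of members, against 5.89% and 8.58% of other cells. Lymphoid markers (Il7r and Satb1) were detected in 10.4% and 8.96%, against 5.50% and 5.73%. Il7r had 1 UMI in knock-in members and 0 UMIs in wild-type members. The lymphoid shares here and in the core therefore rest on Satb1, detected in 10.2% and 8.96% of members. Neutrophil and monocyte markers (Elane, Prtn3, Ctsg, Ms4a3, Irf8 and Ly86) were detected in 68.4% of knock-in members and 85.0% of wild-type members, against 50.1% and 76.1% of all other cells. Of these markers Prtn3 alone was detected more often in members (55.3% against 38.3% in the knock-in, 68.1% against 62.9% in wild type). The rest were detected less often in members, such as Ctsg (19.0% against 27.1%, and 29.2% against 50.8%). In summed CPM every marker of this set, Prtn3 included, was lower in members than in other cells. Core members held them in 80.7% in the knock-in and 93.1% in wild type, and the other members in 66.6% and 83.1%. Lymphoid markers were detected in 12.8% and 16.2% of core members and in 9.99% and 7.26% of the other members. Free RNA in the droplets was not estimated, and its part in these shares was not tested. Elane, a neutrophil protease, was detected in 12.5% of knock-in members and 37.2% of wild-type members. In Car1-high cells of the erythroid line, which should lack it, Elane was detected in 7.98% of knock-in cells (median 13502 UMIs before thinning) and 22.9% of wild-type cells (median 18094 UMIs). RNA of 1 lineage only was detected in 62.3% of knock-in and 68.7% of wild-type members, of 2 lineages in 19.0% and 22.03%, of 3 or more in 2.29% and 1.32%, and of none in 16.4% and 7.93%.

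**Figure D2:**
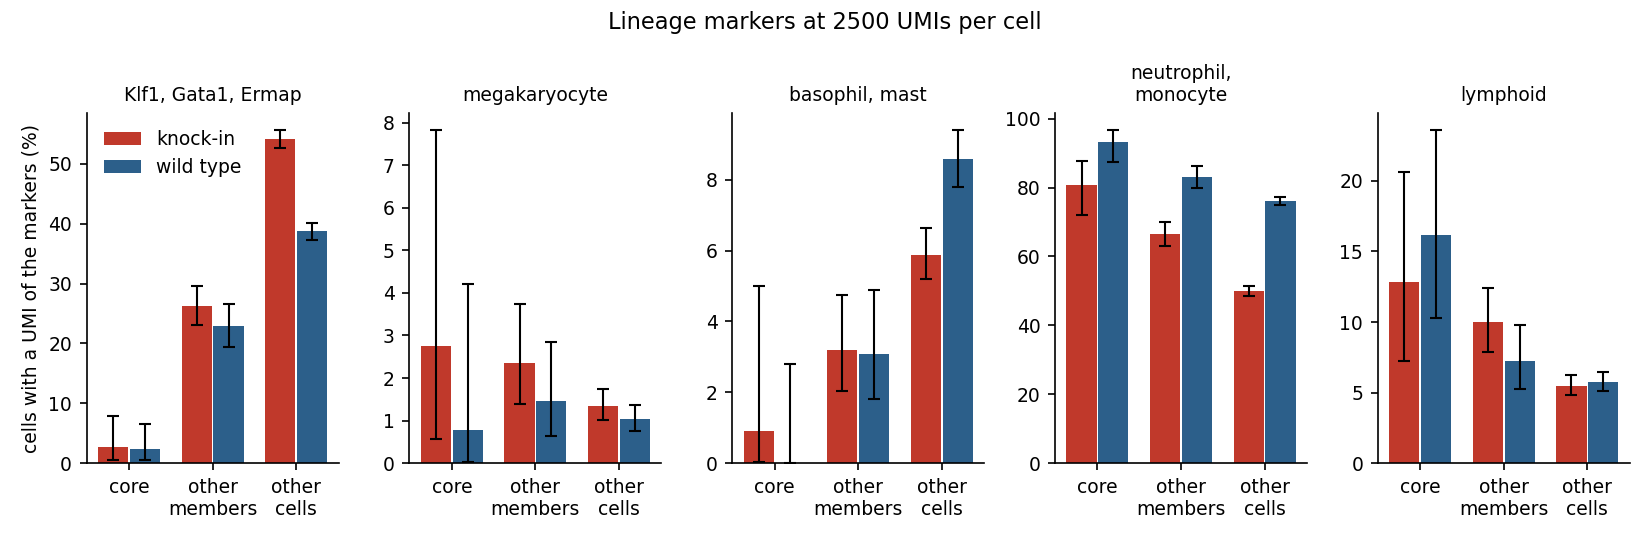
Percentage of cells with a UMI of each lineage's markers at 2500 UMIs per cell in core members (2 or more UMIs of Hlf, Mecom and Procr), other members and all other filtered cells; each panel has its own scale. Bars are 1 library each with exact 95% binomial intervals (counting error only), and the Klf1, Gata1 and Ermap bars are low in the core (2.75% and 2.31%), higher in other members (26.2% and 22.9%) and highest in other cells (54.2% and 38.7%).

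The core and the other members differed in the same direction in both libraries for the genes below, compared at 2500 UMIs per cell. Of 4490 genes with at least 50 UMIs in each library, 22 (0.49%) were at least 2-fold higher in the core in both libraries and 59 (1.31%) at least 2-fold lower. Ly6a stood at 114 CPM in the core and 34.4 CPM in other members of the knock-in, and its log2 ratio of core over other members was 1.73 in the knock-in and 2.08 in wild type. Myl10, a myosin light chain gene, had log2 ratios of 2.19 and 2.07, Nkx2-3 of 1.99 and 2.55, and Ltb of 2.21 and 1.86. Of 10 erythroid genes measured, 6 were at least 2-fold lower in the core in both libraries (medians -1.89 in the knock-in and -2.06 in wild type). Klf1, a red cell transcription factor, had 0 core UMIs against 122 in other members of the knock-in, and 1 against 72 in wild type. Of 18 G2 and M phase genes 5 were at least 2-fold lower in the core in both libraries (medians -0.81 and -1.06). The core is defined by stem rule genes, so these are descriptions of how the members vary.

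Between the genotypes the targeted gene came first. Gata1 lies on the minus strand of chromosome X at 7959260 to 7978071 of mm10 (ENSMUSG00000031162). It had 257 UMIs and 57.2 CPM (50.4 to 64.6) in knock-in members and 364 UMIs and 73.2 CPM (65.8 to 81.1) in wild-type members, a log2 ratio of -0.36 (-0.59 to -0.12). The 3' counts do not show the mutation and so do not check the genotype. At 2500 UMIs Gata1 was detected in 10.96% of knock-in and 8.96% of wild-type members, the opposite order from the summed level, and the summed ratio ranged from -0.38 to 0.55 over the alternatives tried. In all other filtered cells Gata1 stood at 106 CPM in the knock-in and 89.3 CPM in wild type. Gata2 (ENSMUSG00000015053, chromosome 6, 88193891 to 88207032, plus strand, mm10) stood at 204 CPM (191 to 218) in knock-in members and 148 CPM (137 to 159) in wild-type members, a log2 ratio of 0.46 (0.32 to 0.61). It was detected in 35.5% of knock-in and 29.5% of wild-type members. In cells that failed the rule on Car1 alone Gata2 stood at 123 CPM in the knock-in and 45.7 CPM in wild type (log2 ratio 1.43), in those that failed on platelet genes alone at 198 and 197 CPM, and in all other cells at 120 and 54.3 CPM (1.14). The gap in Gata2 was thus smaller in the members than in the Car1 cells.

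Over the 9347 genes with at least 50 UMIs in the members of both libraries together, 82 (0.877%) were at least 2-fold higher in the knock-in and 118 (1.26%) at least 2-fold lower. In all, 52.3% of these genes had a log2 ratio above 0 and 47.7% below 0, with a median of 0.02. Because a gene could pass the minimum through 1 library, the counts over lists below describe the genes measured and say nothing of genes under the minimum. The 6 stem genes of the rule, given for completeness, had log2 ratios from -0.45 for Mecom to 0.50 for Angpt1.

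Stem cell surface and signalling genes were, on balance, slightly higher in the knock-in. Of 25 listed, 22 were measured, 17 were higher and 3 at least 2-fold higher, with a median log2 ratio of 0.21 beside 0.02 for all genes. In all other filtered cells 18 of 22 were higher (median 0.28), so this balance was not particular to the members. Slamf1 (ENSMUSG00000015316, chromosome 1, 171767127 to 171801184, plus strand, mm10) encodes CD150, the receptor used to separate long-term stem cells and megakaryocyte-primed progenitors. It had 170 UMIs and 37.8 CPM (32.3 to 43.9) in knock-in members and 44 UMIs and 8.84 CPM (6.43 to 11.9) in wild-type members, a log2 ratio of 2.10 (1.61 to 2.61). Slamf1 was detected at 2500 UMIs in 10.8% of knock-in members and 1.91% of wild-type members. The wild-type share was close to the 1.04% in wild-type Mpo-high cells and the 1.76% in wild-type Car1-high cells, while in the knock-in those cells gave 1.20% and 5.21%.

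Slamf1 was also higher in the knock-in in cells outside the rule. It stood at 100.5 CPM in the knock-in and 20.8 CPM in wild type in the cells that failed on platelet genes alone (log2 ratio 2.27), and at 18.4 and 3.67 CPM in all other cells (2.32). In core members its log2 ratio was 0.84 without thinning. At 2500 UMIs the core held 7 Slamf1 UMIs in the knock-in and 3 in wild type, too few to set against the value over all members.

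Socs2, an inhibitor of cytokine signalling, and Ctnnal1, an alpha-catulin gene used to label stem cells, were the other 2-fold members of the list, and both were named after their values were seen. Socs2 had 92 UMIs in knock-in and 29 UMIs in wild-type members (log2 ratio 1.81), and Ctnnal1 had 40 and 22 UMIs (1.01, 0.22 to 1.83). The members of the list with most UMIs differed less. Ly6e stood at 429 CPM in the knock-in and 523 CPM in wild type (-0.29), Rgs1, a regulator of G protein signalling, at 370 and 343 CPM (0.11), Cd81 at 238 and 216 CPM (0.14) and Nrgn at 251 and 195 CPM (0.36). Cd34 stood at 227 CPM in the knock-in and 214 CPM in wild type (0.08, -0.04 to 0.21), and its interval held no difference. Ly6a stood at 34.7 CPM in the knock-in and 51.9 CPM in wild type (-0.58, -0.88 to -0.29). When every cell was thinned to 2500 UMIs before the rule, 7 of 16 measured genes of the list were higher (median -0.04). In members without any UMI of the excluded Car1, platelet, mast and Mpo genes 4 of 11 were higher (median -0.18).

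Among 24 of 28 stem cell transcription factors measured, 17 were higher in the knock-in and none was 2-fold apart, with a median of 0.22. Zfp36l2, an RNA-binding protein needed for stem cells, stood at 962 CPM in knock-in members and 695 CPM in wild-type members (log2 ratio 0.47, 0.40 to 0.53). Msi2, another RNA-binding regulator, stood at 198 and 176 CPM (0.17). Lmo2, a bridging partner of GATA factors, stood at 498 and 520 CPM (-0.06), and Egr1 at 182 and 170 CPM (0.10). Of the GATA factors and their partners, 6 of 10 measured were higher (median 0.16). Among them Zfpm1, the GATA cofactor FOG-1, stood at 183 CPM in the knock-in and 141 CPM in wild type (0.38), and Runx1 at 147 and 121 CPM (0.28). After thinning to 4000 UMIs before the rule, 7 of 19 stem cell transcription factors were higher (median -0.05). In all other filtered cells 22 of 25 stem cell transcription factors were higher (median 0.19), and in cells that failed on Car1 alone 15 of 19 (0.57).

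Genes of the G2 and M phases were lower in the knock-in without exception. All 25 genes listed were measured and all 25 had a log2 ratio below 0, none at least 2-fold, with a median of -0.56. Top2a, a DNA topoisomerase, stood at 253 CPM in knock-in members and 341 CPM in wild-type members (log2 ratio -0.43, -0.54 to -0.32). Mki67, the proliferation marker Ki-67, stood at 228 and 305 CPM (-0.42), Ube2c, a ubiquitin-conjugating enzyme of mitotic exit, at 159 and 234 CPM (-0.56), and Cenpa, the centromeric histone, at 154 and 212 CPM (-0.46). The list's values ran from -0.96 for Aurka, a mitotic kinase, to -0.13 for Pttg1. The S phase list was closer to even, with 5 of 25 higher and a median of -0.09. Dut stood at 335 CPM in the knock-in and 441 CPM in wild type (-0.40), Mcm7 at 159 and 206 CPM (-0.37), Mcm6 at 159 and 193 CPM (-0.28) and Mcm3, also of the replicative helicase, at 194 and 192 CPM (0.02). With every cell thinned to 4000 UMIs before the rule, 21 of 23 S phase genes were higher (median 0.28). Ccne1, cyclin E1, stood at 12.7 CPM in the knock-in and 32.6 CPM in wild type (-1.36), and its ratio was 0.16 in members without a UMI of Klf1, Gata1 or Ermap.

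**Figure D3:**
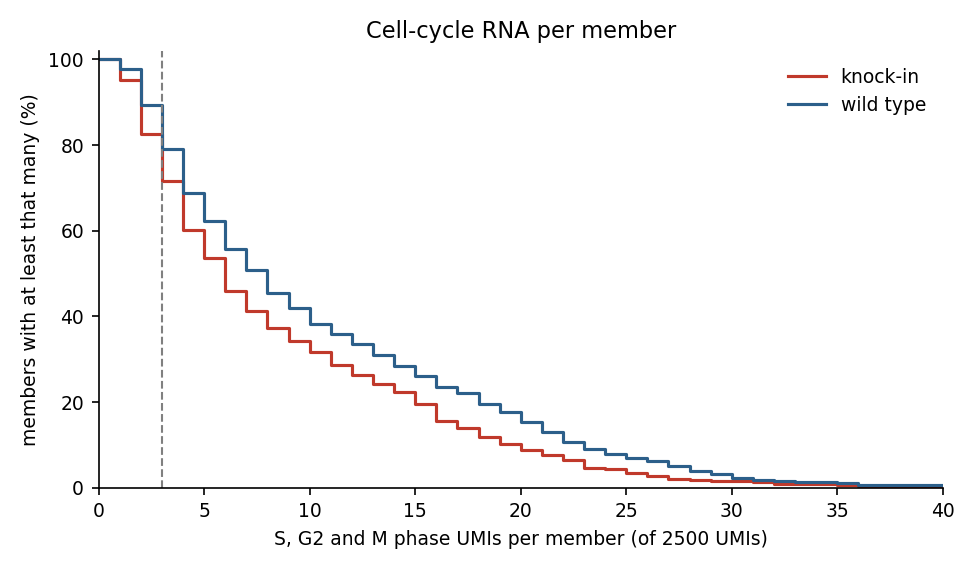
Share of members (y axis, percent) with at least a given number of S, G2 and M phase UMIs (x axis) after each member was thinned to 2500 UMIs, for the knock-in and wild-type libraries. The dashed line marks 3 UMIs, where the curves stand at 71.6% in the knock-in and 79.1% in wild type, and the median member had 5 and 7 cycle UMIs.

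Counted per cell, 71.6% (594 of 830, 68.4 to 74.6) of thinned knock-in members and 79.1% (539 of 681, 75.9 to 82.1) of thinned wild-type members held 3 or more UMIs of the S, G2 and M phase lists. The median was 5 UMIs in the knock-in (quartiles 2 and 12) and 7 UMIs in wild type (quartiles 3 and 15). In all other filtered cells the shares were 82.4% and 90.9%, with medians of 9 and 11 UMIs. Members therefore held less cycle RNA than other cells in both libraries. In core members the shares were 64.2% (54.5 to 73.2) in the knock-in and 66.9% (58.1 to 74.9) in wild type, with overlapping intervals, and in the remaining members 72.7% and 82.0%. Members without any cycle UMI made up 4.82% in the knock-in and 2.35% in wild type. At 4000 UMIs, with 447 knock-in and 540 wild-type members left, 94.9% and 93.7% held 3 or more cycle UMIs, so the order of the libraries was not kept. Detected genes per member at 2500 UMIs were alike, with medians of 1180 and 1181.

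The G2 and M phase values in neighbouring cells did not all match those of the members. In cells with 1 stem gene UMI 12 of 25 genes were higher in the knock-in (median -0.08). In those that failed on Car1 alone 3 of 25 were higher (-0.21), in those that failed on Dntt and Flt3 alone 3 of 24 (-0.57), and in those that failed on Mpo alone 22 of 25 (0.36). In all other cells 5 of 25 were higher (-0.13). In core members without thinning 9 of 24 were higher (-0.12), and in members without any UMI of the excluded Car1, platelet, mast and Mpo genes 6 of 8 measured were higher (0.62).

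Inhibitors of cyclin-dependent kinases and quiescence genes gave 11 of 16 measured genes higher in the knock-in, with a median of 0.23. Cdkn1a, the kinase inhibitor p21, had 118 UMIs and 26.2 CPM in knock-in members and 38 UMIs and 7.64 CPM in wild-type members (log2 ratio 1.78, 1.24 to 2.35), and was detected in 6.02% and 1.47% of thinned members. Among thinned members the core held 1 Cdkn1a UMI in the knock-in and 1 in wild type, against 63 and 10 in the other members. The gap in Cdkn1a was thus seen in the other thinned members, at 35.0 CPM in the knock-in and 7.26 CPM in wild type. The core had too few UMIs to compare the genotypes there. In all other filtered cells Cdkn1a stood at 11.03 CPM in the knock-in and 5.29 CPM in wild type (1.06). Txnip, a redox regulator, stood at 356 CPM in knock-in members and 236 CPM in wild-type members (0.59). Btg2 stood at 231 and 197 CPM (0.23) and Btg1 at 91.6 and 78.8 CPM (0.22). Klf4, a Kruppel-like factor, went the other way, with 10.7 CPM in the knock-in and 25.5 CPM in wild type (-1.26). Of 11 p53 targets measured 6 were higher (median 0.05), and Cdkn1a alone was 2-fold apart.

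Interferon response genes were mostly lower in the knock-in. Of 22 measured 19 were lower, 3 of them at least 2-fold, with a median of -0.39. Bst2, the antiviral protein tetherin, stood at 40.9 CPM in knock-in members and 113 CPM in wild-type members (log2 ratio -1.47, -1.72 to -1.23), and was detected in 7.59% and 23.8% of thinned members. Bst2 stood at 41.8 CPM in the knock-in and 119 CPM in wild type in all other cells (-1.51), so its gap was about the same there. The other 2-fold genes, Usp18 (24 UMIs in the knock-in and 71 in wild type) and Oas1a (18 and 49), had few UMIs and were named after their values were seen. Ifi27 stood at 121 CPM in the knock-in and 141 CPM in wild type (-0.23), Ifi47 at 55.8 and 71.8 CPM (-0.36) and Gbp7 at 63.2 and 56.7 CPM (0.16).

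Most genes of antigen presentation were lower in the knock-in. Of 17 MHC class I and II genes measured 12 were lower, 5 of them at least 2-fold, with a median of -0.27. H2-Q7 stood at 111 CPM in knock-in members and 239 CPM in wild-type members (log2 ratio -1.11), and H2-Q6, a close relative whose reads may be shared with it, at 21.4 and 68.9 CPM (-1.69). H2-K1 stood at 891 and 1207 CPM (-0.44), H2-D1 at 692 and 836 CPM (-0.27), and B2m, their shared light chain, at 812 and 1157 CPM (-0.51). H2-T23 was higher, with 206 CPM in the knock-in and 169 CPM in wild type (0.29). The remaining 2-fold genes were Nlrc5 (9 UMIs in the knock-in and 54 in wild type), H2-Aa (8 and 44) and Cd74 (18 and 78), named after their values were seen. In all other cells 6 of 18 MHC genes were higher (median -0.20).

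**Figure D4:**
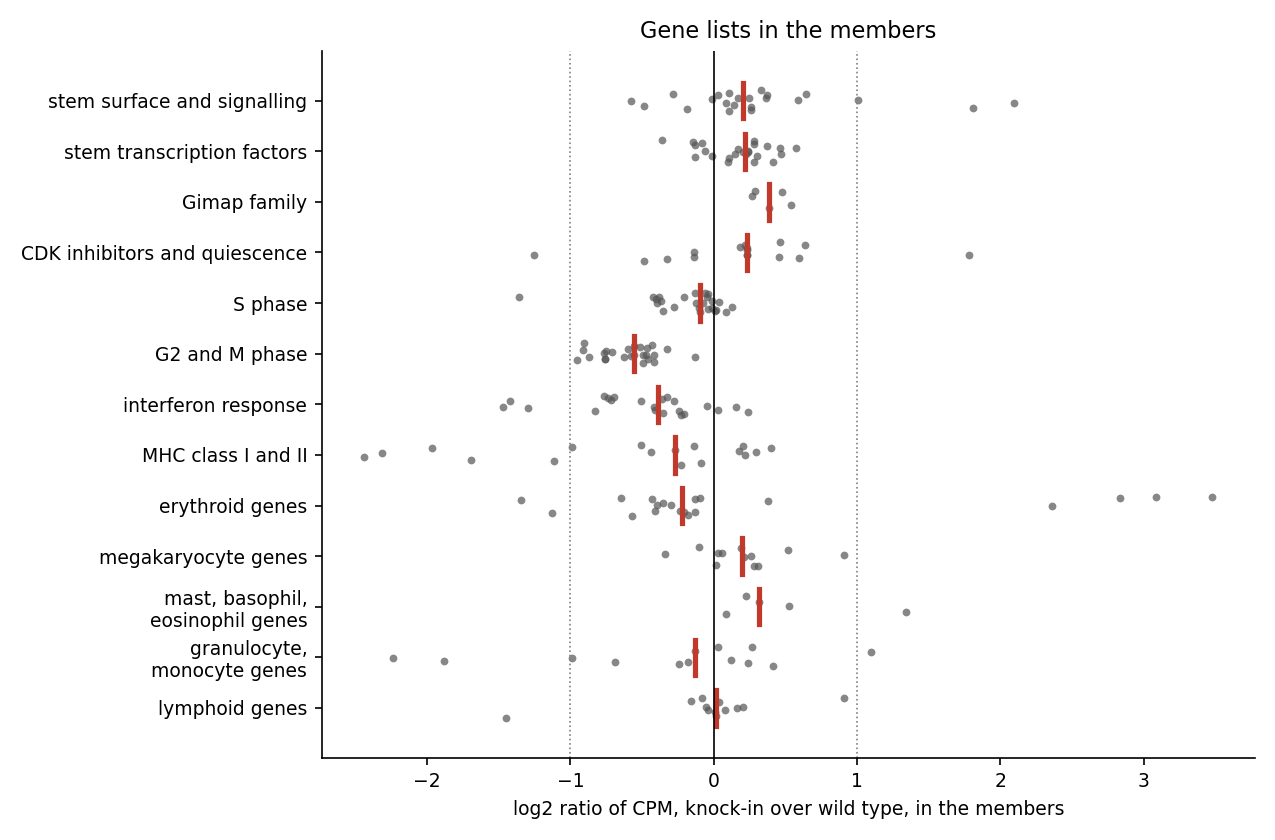
Log2 ratio of summed CPM, knock-in over wild type, for each measured gene (point) of 13 gene lists in the members; red bars are list medians and dotted lines mark 2-fold. All G2 and M phase points lie below 0 (median -0.56), the interferon response median is -0.39, and the 4 erythroid points above 2 are the globin genes; each point compares 1 library with 1 library.

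Erythroid genes outside the rule were lower in sum for most of the list. All 20 were measured, 15 were lower in the knock-in and the median was -0.22. Car2, carbonic anhydrase 2, stood at 953 CPM in knock-in members and 1170 CPM in wild-type members (log2 ratio -0.30), and Blvrb, biliverdin reductase B, at 212 and 282 CPM (-0.41). Rhd, of the Rh complex of the red cell membrane, had 20.7 CPM in the knock-in and 52.5 CPM in wild type (-1.34), and Rhag, of the same complex, had 11.6 and 25.3 CPM (-1.13). Weighting every cell equally reversed the balance of this list, with 14 of 20 higher (median 0.11). With every cell thinned to 2500 UMIs before the rule, 9 of 13 were higher (median 0.20).

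The 4 adult globin genes were the list's high values, but in few cells. Hbb-bs had 1674 UMIs in knock-in members and 218 UMIs in wild-type members (log2 ratio 3.09), of which 1569 and 190 UMIs lay in 2 cells of each library. Hba-a1 had 683 and 106 UMIs (2.83), of which 625 and 78 lay in 2 cells, and Hba-a2, its near-identical copy, had 524 and 52 UMIs (3.48), of which 486 and 45 lay in 2 cells. Hbb-bt had 514 and 111 UMIs (2.36), of which 329 and 37 lay in 2 cells. At 2500 UMIs Hbb-bs was detected in 6.75% (56 of 830) of knock-in members and 1.32% (9 of 681) of wild-type members, and in Mpo-high cells in 9.64% and 0 of 193. The knock-in Mpo-high share was 8 of 83 cells, and its interval (4.25 to 18.1) held the members' share. In Car1-high cells Hbb-bs was detected in 3.67% in the knock-in and 0.88% in wild type. The part of free RNA in these shares was not tested. With the rule applied after thinning to 2500 UMIs the Hbb-bs ratio was -2.26.

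Of the other lineage lists, 10 of 12 measured megakaryocyte genes were higher in the knock-in (median 0.20, none 2-fold), led in UMIs by Rap1b at 160 CPM in the knock-in and 132 CPM in wild type (0.28). Plek, pleckstrin, stood at 63.2 and 44.2 CPM (0.51), F2r, a thrombin receptor, at 59.8 and 48.2 CPM (0.31), and Cd9 at 64.1 and 62.7 CPM (0.03). All 5 of 20 mast cell, basophil and eosinophil genes that were measured were higher (median 0.31). The list gave 6 of 6 higher in cells that failed on Car1 alone (median 1.24) and 5 of 5 in cells with 1 stem gene UMI (0.90). It gave 1 of 3 in cells that failed on platelet genes alone (-0.12), 2 of 8 on mast genes (-0.41) and 0 of 5 on Mpo (-0.17). In those that failed on Dntt and Flt3 alone it gave 1 of 2 (0.003), and in all other cells 7 of 14 (0.01). Csf2rb, the shared beta chain of the IL-3, IL-5 and GM-CSF receptors, stood at 28.0 CPM in knock-in members and 11.1 CPM in wild-type members (log2 ratio 1.34, 0.87 to 1.83), against 12.7 and 10.8 CPM in all other cells (0.24). Lmo4 stood at 121 and 83.6 CPM (0.53), Slc18a2, a monoamine transporter, at 64.5 and 55.3 CPM (0.22), and Srgn, the granule proteoglycan serglycin, at 1269 and 1196 CPM (0.09).

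Granulocyte and monocyte genes gave 6 of 13 higher (median -0.13), and 2 were at least 2-fold lower. Elane stood at 48.3 CPM in knock-in members and 178 CPM in wild-type members (log2 ratio -1.88), beside 23.1 and 93.4 CPM in Car1-high cells. Ly6c2 stood at 5.12 and 24.1 CPM (-2.24). Calr stood at 675 and 562 CPM (0.27), Prtn3, the neutrophil protease 3, at 473 and 518 CPM (-0.13), Ctsg at 135 and 153 CPM (-0.18) and Lyz2 at 152 and 129 CPM (0.24). Lymphoid genes gave 7 of 12 higher (median 0.01). Wfdc17 was the lymphoid-list gene 2-fold apart, with 22.5 CPM in knock-in members and 61.5 CPM in wild-type members (-1.45), while Mef2c stood at 331 and 328 CPM (0.01), Bcl11a at 222 and 216 CPM (0.03) and Ikzf1 at 100 and 95.1 CPM (0.08).

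Some smaller families moved together in value. All 5 measured Gimap genes, GTPases of lymphocyte and stem cell survival, were higher in the knock-in (median 0.39). Gimap1 stood at 137 CPM in knock-in members and 98.7 CPM in wild-type members (log2 ratio 0.48), Gimap6 at 104 and 85.4 CPM (0.29), Gimap9 at 50.1 and 34.4 CPM (0.54) and Gimap5 at 30.5 and 23.3 CPM (0.39). All 6 measured Gimap genes were also higher in all other cells (median 0.74). Glutathione transferases, metallothioneins and their relatives gave 3 of 14 higher (median -0.21). Gstp1 stood at 5.78 CPM in the knock-in and 36.8 CPM in wild type (-2.67), Mt1 at 128 and 287 CPM (-1.16) and Mt2 at 28.0 and 105 CPM (-1.90). Gpx1, a glutathione peroxidase, stood at 1138 and 1228 CPM (-0.11), Gpx4 at 568 and 534 CPM (0.09) and Gclm at 207 and 240 CPM (-0.21). Of 20 chromatin and DNA methylation regulators 15 were higher (median 0.17, none 2-fold), and of 21 cytokine receptors and niche signals 15 were higher (median 0.22).

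Immediate early genes, which respond to cell handling as well as to signals, were mixed, with 11 of 20 higher (median 0.11). Fos stood at 465 CPM in knock-in members and 689 CPM in wild-type members (log2 ratio -0.57), Fosb at 297 and 458 CPM (-0.62), Jun at 827 and 755 CPM (0.13) and Jund at 764 and 841 CPM (-0.14). Glycolysis genes gave 7 of 18 higher (median -0.04), with Eno1, an enolase with many processed copies in the genome, at 47.2 CPM in the knock-in and 122 CPM in wild type (-1.38), and Gapdh at 1058 and 1033 CPM (0.03). Of 22 nuclear genes of oxidative phosphorylation 7 were higher (median -0.06), and of 18 genes of the unfolded protein and integrated stress response 10 were higher (median 0.10).

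The genes whose intervals lay farthest from no difference came from many functions. Apart from the globins, Slamf1 and Cdkn1a, those higher in the knock-in included Mtmr9, a myotubularin-related protein (39.6 CPM in the knock-in and 9.65 CPM in wild type, log2 ratio 2.04), Slc7a8, an amino acid transporter (31.1 and 7.64 CPM, 2.03), Csrp3 (94.8 and 29.9 CPM, 1.66), St8sia6, a sialyltransferase (23.8 and 6.63 CPM, 1.84), and Mtss1 (50.9 and 18.7 CPM, 1.45). Gm26853 (28.5 and 6.43 CPM, 2.15), Gm6133 (38.5 and 10.5 CPM, 1.88), Phpt1, a phosphohistidine phosphatase (33.1 and 11.1 CPM, 1.58), and Pglyrp1, a peptidoglycan recognition protein (43.4 and 15.3 CPM, 1.51), completed the 15. Csrp3, a LIM domain protein, was detected at 2500 UMIs in 13.9% of knock-in members and 4.99% of wild-type members, and in 27.0% and 8.32% of Car1-high cells.

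Apoe (ENSMUSG00000002985, chromosome 7, 19696109 to 19699188, minus strand, mm10), the apolipoprotein E gene, had 333 UMIs and 74.1 CPM (66.3 to 82.5) in knock-in members and 3543 UMIs and 712 CPM (689 to 736) in wild-type members, a log2 ratio of -3.27 (-3.43 to -3.10). It was detected in 12.9% of knock-in members and 57.0% of wild-type members. In Car1-high cells it stood at 4.65 CPM in the knock-in and 336 CPM in wild type, and in Mpo-high cells at 6.54 and 78.1 CPM. The Apoe level was thus lower in the knock-in in members, in Car1-high and in Mpo-high cells. Macrophages express Apoe, and of the 9 macrophage markers listed the other 8 had at most 27 UMIs in the members of either library. There were 16 and 23 UMIs of C1qa, 17 and 22 UMIs of C1qb and 0 and 1 UMI of Adgre1. Even so, C1qa stood at 3.56 CPM in knock-in members and 0.66 CPM in other knock-in cells, and at 4.62 and 0.92 CPM in wild type. C1qb, C1qc, Cd5l and Mrc1 were also higher in members of both libraries. Adgre1 was lower in both, and Vcam1 and Cd68 differed in direction between the libraries. The part of macrophage RNA in the Apoe level was not tested.

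Gm42047 had 0 UMIs in knock-in members, up to 0.82 CPM by the exact interval, and 197 UMIs and 39.6 CPM in wild-type members. The upper end of its exact interval was a log2 ratio of -5.58, and with the knock-in set at a floor of 3 UMIs per library the value was -5.89. Hist1h2ap, a replication-dependent histone gene, stood at 45.6 CPM in the knock-in and 734 CPM in wild type (-4.01), and Hist1h2ae at 130 and 451 CPM (-1.79). Of the 43 replication-dependent histone genes measured 11 were at least 2-fold lower and 18 were higher (median -0.26). Apobec3, a cytidine deaminase that restricts retroviruses, stood at 42.9 CPM in the knock-in and 177 CPM in wild type (-2.04), and Slc1a5, a glutamine transporter, at 11.3 and 43.6 CPM (-1.94). Atp5k (199 and 610 CPM, -1.62), Gm10076 (39.8 and 348 CPM, -3.13), Usp50 (9.34 and 66.3 CPM, -2.83) and Gm8186 (20.02 and 69.7 CPM, -1.80) were also among the 15. Atp5k and the histone genes have near-identical copies or pseudogenes, so their counts are uncertain. Among the 93 measured genes with a longest transcript of at most 600 bases 19.4% were at least 2-fold lower and 7.53% at least 2-fold higher.

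**Figure D5:**
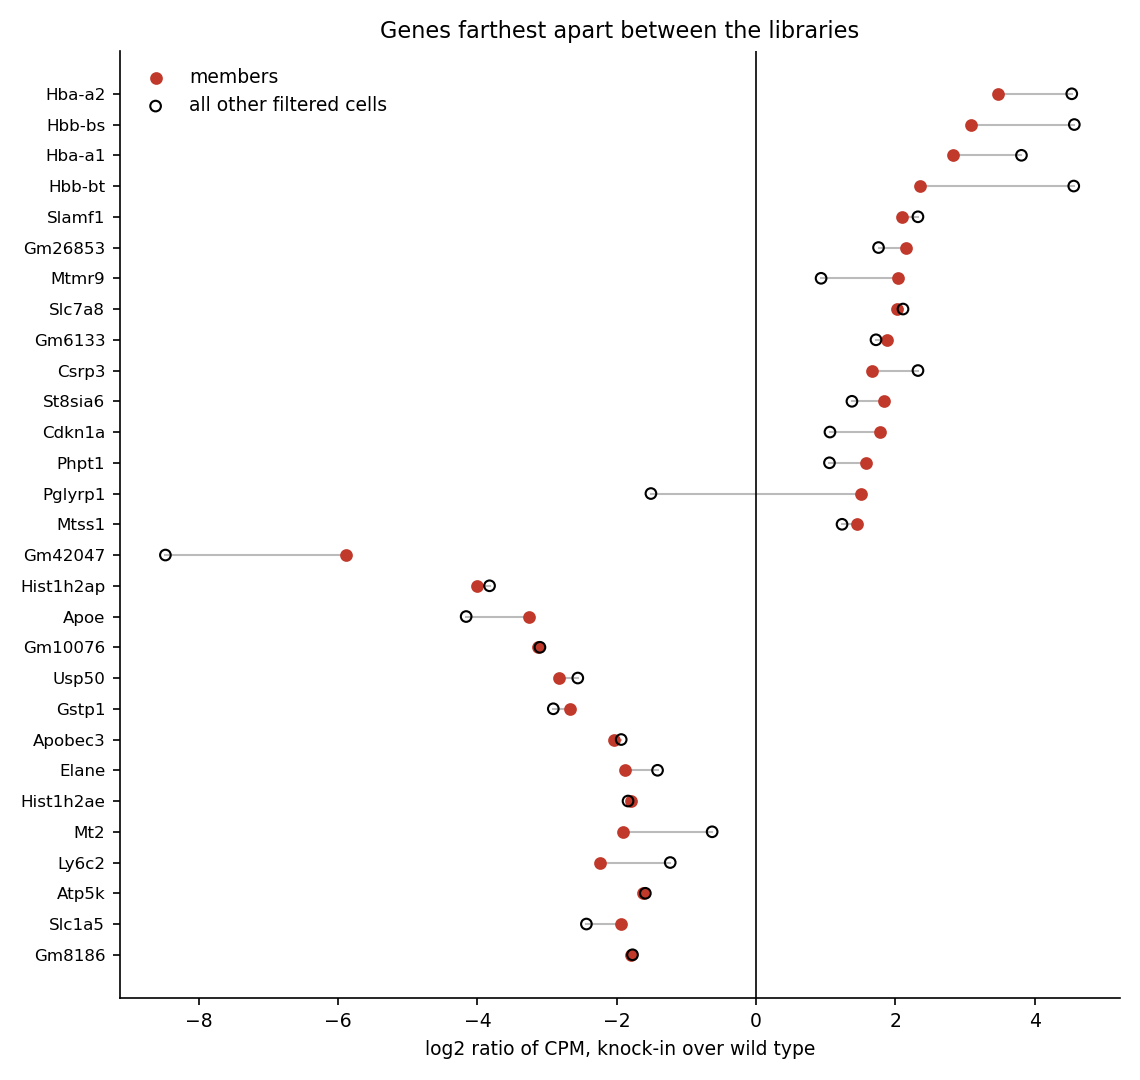
Log2 ratio of CPM, knock-in over wild type, for the 15 higher genes and 14 of the 15 lower genes whose intervals lay farthest from no difference in the members (filled points), with the same genes in all other filtered cells (open circles). Of the 15 higher genes 14 were also higher in all other cells, Pglyrp1 being the exception (1.51 in members, -1.51 in other cells), and all 15 lower genes were lower there too; Gm42047 is drawn with the knock-in at its floor of 3 UMIs.

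In the nearest cells the same genes mostly kept their side. Of the 15 higher genes all 15 were higher in cells with 1 stem gene UMI and 14 in cells that failed on Car1 alone. Of the 15 lower genes all 15 were lower in both. By chromosome, 4.97% of 503 measured genes were past 2-fold in either direction on chromosome 8, 4.35% of 368 on chromosome 13 and 0 of 301 on chromosome 16. Chromosomes 1, 2 and 11 gave 2.59% of 540, 2.3% of 738 and 1.81% of 775. Over all genes measured 0.877% were at least 2-fold higher and a further 1.26% at least 2-fold lower. Some markers of other cell types were at or near 0 in the members and others were not. Of the 7 T and NK cell markers, Nkg7 stood at 255 CPM in knock-in members and 204 CPM in wild-type members, while Cd3g had 14 and 0 UMIs, Trbc2 12 and 1, Cd3e 4 and 0, and Ncr1 none. Of the 6 B cell markers, Cd79b stood at 35.4 and 24.9 CPM, and Pax5 had 1 UMI in knock-in members and 0 UMIs in wild-type members. The 7 endothelial markers summed to 58.1 CPM in the knock-in and 51.3 CPM in wild type, with Cdh5 and Cldn5 at 0. Pecam1 stood at 30.5 and 27.3 CPM in members, against 16.7 and 19.0 CPM in other cells. Tie1 stood at 12.9 and 13.3 CPM (2.81 and 2.36 in other cells) and Emcn at 12.7 and 8.44 CPM (1.82 and 1.46). The 6 stromal markers summed to 29.1 and 19.5 CPM, with Cxcl12, Col1a1 and Kitl at 0. Most of that sum was Pdgfrb, at 27.4 and 16.3 CPM, against 10.2 and 5.98 CPM in other cells. The 5 plasmacytoid dendritic cell markers had 1 UMI in the knock-in and 7 UMIs in wild type, none of them Siglech. The part of such cells in the results was not tested.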

How the data were processed

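Bone marrow Lin- Kit+ cells were profiled by 10x 3' single-cell sequencing, with 1 library for the knock-in and 1 for wild type. The authors deposited raw UMI counts for each gene in each barcode; their software was Cell Ranger 3.1.0, per the file headers. The build is mm10, per the submitters' processing notes. How the authors chose barcodes is not given in the sources used here; there were 6640 knock-in and 7471 wild-type barcodes with 48005467 and 70543211 UMIs and a smallest total of 500. Of 31053 gene IDs 30934 were found in GENCODE M21, which gave positions and transcript lengths.

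Background RNA and doublets were not removed, and the top 5% of Scrublet scores (scanpy 1.11.5) were left out as an alternative. Thinning drew UMIs without replacement from each cell (numpy 2.4.6, seed 1). UMIs were summed over members per library and scaled to CPM. Shares have Clopper-Pearson, sums Poisson and ratios conditional binomial 95% intervals (scipy 1.17.1), for counting error only. Genes needed 50 UMIs over both libraries (20 in neighbouring cells); lists in the core comparison needed 50 in each library. A library at 0 was set at 3 UMIs. Car1-high cells had 20 or more CP10k of Car1 and under 20 of Mpo, and Mpo-high cells 100 or more of Mpo and under 5 of Car1. The ratio code was tested on simulated data.

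The members and lists were chosen with earlier results of these data known. Named genes were Gata1, Gata2 and the stem genes of the rule; up to 4 genes with the most UMIs per list, and those past 2-fold where the higher library had 100 UMIs; and 15 in each direction whose interval lay farthest from no difference, leaving out mitochondrial, ribosomal protein, Xist, Tsix, Y-linked and rule genes. The text gives part of these, and some genes are not reported here.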

Additional observations from a re-analysis of the deposited data

Results flagged for a closer look

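Pglyrp1 had opposite directions in the members and in the remaining cells. Its log2 ratio of knock-in over wild type was 1.51 in members (43.4 CPM in the knock-in and 15.3 CPM in wild type) and -1.51 in all other filtered cells (11.7 and 33.4 CPM). The difference between these ratios was not tested, since there was 1 library per genotype.

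Among barcodes outside the cell filter, 41 of 859 in the knock-in and 48 of 1836 in wild type met the gene part of the rule. Their median UMI totals were 1072 and 1375 and their median mitochondrial shares 13.4% and 18.7%. These barcodes entered no comparison.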

How the results depend on the processing

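No paired analysis was possible because each genotype had 1 library, and leaving out a replicate was not an option for the same reason. Ratios are log2, knock-in over wild type, and list values are members higher of those measured. Of the values for shares, counts and lists, 130 stayed close to those reported, 70 moved and 1 reversed. For lists this followed the count of higher genes alone, not the number measured or the sign of the median. The erythroid list at 4000 UMIs (7 of 9, median 0.41, against 5 of 20, -0.22) was thus among those that stayed close. Lists whose median changed sign, such as S phase at 4000 UMIs (21 of 23, 0.28, against -0.09), were among those that moved. Of those for single genes, 652 stayed close, 150 moved and 6 reversed. The causes were not tested.

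With every cell thinned to 2500 UMIs before the rule, members were 11.6% of knock-in and 8.41% of wild-type cells and the core 18.8% and 29.7% of members. Genes 2-fold higher numbered 42 of 6119 measured. Lists gave 7 of 16 for stem surface, 11 of 20 for stem transcription factors, 9 of 13 for erythroid, 3 of 20 for S phase and 0 of 15 for interferon genes. Hba-a1 (-2.58), Hba-a2 (-1.34) and Hbb-bs (-2.26) reversed. At 4000 UMIs members were 8.78% and 8.11% (ratio 0.11), the knock-in core 13.9% (ratio -1.28) and 2-fold higher genes 31 of 6317. Lists gave 6 of 16 for stem surface, 7 of 19 for stem transcription factors and 21 of 23 for S phase. They gave 2 of 24 for G2 and M phase and 2 of 14 for MHC genes, and Ccne1 reversed (0.98).

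With 3 or more stem gene UMIs members were 11.1% in the knock-in and 9.90% in wild type (ratio 0.17). Without any UMI of the excluded Car1, platelet, mast and Mpo genes they were 3.68% and 0.834% (ratio 2.14). Holding 0 UMIs of these genes depends on depth, and the cells were not thinned for this setting. Filtered cells had a median of 5449 UMIs in the knock-in and 9826 UMIs in wild type, and the part of depth in the gap was not tested. In the same setting the core was 37.6% and 51.1%, members with cycle RNA 53.9% and 55.6%, and 2-fold lower genes 50 of 2915. Lists gave 4 of 11 for stem surface, 11 of 15 for stem transcription factors and 6 of 8 for G2 and M phase. They gave 1 of 5 for interferon and 3 of 10 for MHC genes, and Rhag reversed (1.81).

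Members with cycle RNA were 51.1% in the knock-in and 63.8% in wild type at 1500 UMIs (ratio -0.32), 94.9% and 93.7% at 4000 UMIs (reversed, ratio 0.018), 75.9% and 91.1% without thinning, 95.2% and 97.7% for 1 or more UMIs, and 53.6% and 62.3% for 5 or more.

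With 10 UMIs per gene as the minimum, 322 of 11542 genes were 2-fold higher and 351 lower. With 200 UMIs, 21 of 5670 were higher and 53 lower, with 11 of 14 stem surface and 1 of 13 interferon genes higher. S phase gave 3 of 25 with ratios centred on the median gene and 3 of 25 without the top 5% of Scrublet scores. With each cell weighted equally it gave 2 of 25, beside 14 of 20 for erythroid and 1 of 22 for interferon genes.

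Settings with fewer kinds of members were chosen after seeing the data. In the core, 34 of 5842 genes were 2-fold higher, and cycle RNA was in 64.7% of knock-in and 72.2% of wild-type members. Lists there gave 10 of 16 for stem surface, 3 of 21 for S phase, 9 of 24 for G2 and M phase and 3 of 15 for MHC genes. Without members holding Klf1, Gata1 or Ermap UMIs, lists gave 11 of 19 for stem surface, 8 of 10 for erythroid and 10 of 24 for S phase genes. Cycle RNA was then in 75.1% of wild-type members, and Ccne1 reversed (0.16). Depth limits genes of few UMIs most, and 121 knock-in and 15 wild-type members were too shallow for thinning to 2500 UMIs.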
